A study of Homo sapiens with 6 samples.

Results

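The 8 genes described here encode the DNA topoisomerases TOP1, TOP1MT, TOP2A, TOP2B, TOP3A and TOP3B and the tyrosyl-DNA phosphodiesterases TDP1 and TDP2. They were chosen by name from the 25445 rows of a gene count table, and each was found once. The cells were MHCC-97H, an established line of human liver cancer grown in medium with fetal bovine serum. They received 10 μM of compound 6j, made from the plant alkaloid sophoridine, or solvent alone for 16 h, and each group had 3 libraries, numbered 1 to 3. The solvent group is called non-treated here, and its sample labels give the treatment as none. Sophoridine, the parent compound, is known as an inhibitor of topoisomerase I, whereas earlier work cited by the study describes 6j as leaving that enzyme unaffected, and enzyme activity was not measured in these libraries. The comparison asks whether transcripts of these enzymes, and of genes that act with them, differed after 6j.

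Topoisomerases relieve the twisting of DNA during transcription, replication and chromosome separation by cutting a strand or both strands and sealing the break again. During the cut, a tyrosine of the enzyme stays bound to the DNA end. Drugs that hold the enzyme in that state leave a protein trapped on broken DNA, and TDP1 and TDP2 cleave the bond between the tyrosine and the DNA. TOP2A is made mainly in dividing cells and is widely used as a marker of proliferation, while TOP2B is also made in resting cells.

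The total count was 31533403 to 38018349 per library, and the 8 genes had between 569 and 22065 counts each in a library. Levels are given as CPM, counts scaled to a common library size after TMM normalization, which assumes that most genes do not differ. Of 15957 rows tested in edgeR's quasi-likelihood test, 574 were called, meaning a fold change above 1.5 and a p under 0.05 after Benjamini-Hochberg adjustment, with 396 of them higher in 6j treated cells (2.48%) and 178 lower (1.12%). With libraries scaled by their summed counts per kilobase (TPM scaling), the split was 701 higher and 89 lower, and the median log2 fold change of all rows moved from 0 to 0.13. The calls rested on particular libraries, with 186 left when non-treated replicate 1 was dropped, 193 when 6j replicate 2 was and 379 when non-treated replicate 3 was. The labels do not say that equal replicate numbers belong together, but their deviations correlated weakly (r = 0.171, 0.18 and 0.312). The number was therefore also used as a block in a second fit, which assumes that pairing. The labelled liver origin was checked with hepatocyte markers, and those named here were nearly absent. ALB and AFP did not exceed 0.217 and 0.184 CPM, TTR had no count in any library, and HNF4A reached at most 1.43 CPM. The keratin genes KRT8 (378 to 652 CPM) and KRT18 (323 to 456 CPM) were abundant, while EPCAM had no count and CDH1 was at 0.108 to 0.341 CPM. The summed level of these 4 epithelial genes, nearly all of it from the keratins, was 899 to 1110 CPM in non-treated and 712 to 808 CPM in 6j treated libraries, a difference whose part in the results below was not tested. The leukocyte genes PTPRC and CD3E had no count, while CD68, also made by other cells, was at 39.4 to 70.5 CPM. Of the fibroblast genes checked, COL1A1 was at 199 to 275 CPM and PDGFRB at 3.81 to 6.73 CPM. COL1A2 had no count and DCN did not exceed 0.199 CPM. Of the endothelial genes, CDH5 was at 1.39 to 5.93 CPM, and PECAM1 and VWF did not exceed 0.767 and 0.211 CPM.

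All 8 genes passed the filter on low counts. In the fit without a block 0 of the 8 were called in edgeR, against 3.6% of all rows tested. With no fold threshold, where 9.16% of all rows passed (4.79% higher and 4.37% lower), the count was also 0. DESeq2, run without the filter on low counts, passed 0 of the 8 and 2367 of its 22065 rows (10.7%), so the shares of the tools have unlike bases. Of the 8, 2 (TOP1 and TOP3B) had an unadjusted p under 0.05 in each tool, where edgeR gave this for 26.2% of all rows. The estimates were small, with 5 genes lower and 3 higher in 6j treated cells, a median log2 fold change of −0.05 and none further from 0 than 0.27. Over all rows, 5% lay below −0.62 and 5% above 0.79. The 95% interval of the log2 fold change lay within 1.5-fold in either direction for 8 of the 8 genes, which held for 49.9% of all rows tested. With the block it did so for 8 of the 8 and for 57.3% of all rows. These intervals are not adjusted for the number of genes.

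**Figure D1:**
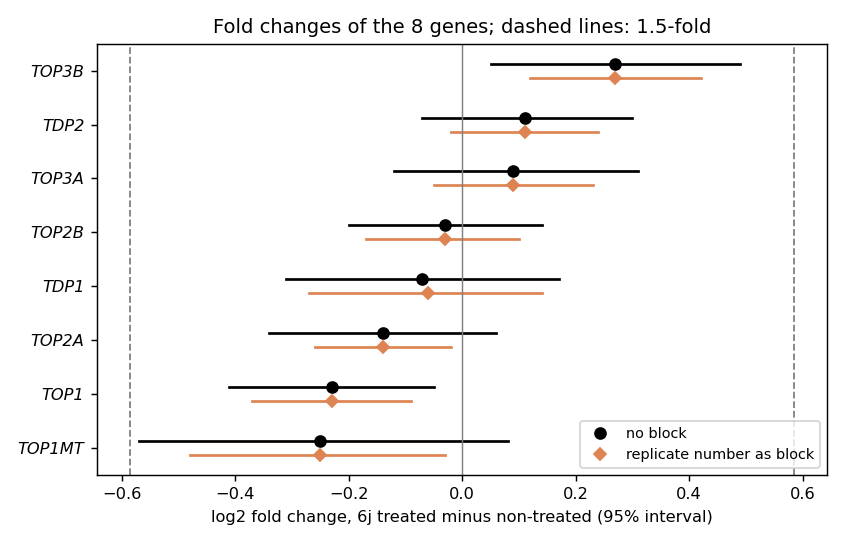
Log2 fold change of each gene, 6j treated minus non-treated, with its 95% interval, from edgeR without a block (black circles) and with replicate numbers blocked (orange diamonds). Every interval stays inside the dashed lines at a 1.5-fold change, and the intervals of TOP1 (below 0) and TOP3B (above 0) leave out 0 in both fits, those of TOP1MT and TOP2A in the blocked fit alone.

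TOP1 (ENSG00000198900) encodes the nuclear type IB enzyme, which nicks a single strand ahead of and behind RNA polymerase and is the target of camptothecins. The gene lies on chromosome 20 from 41028818 to 41124487 (GRCh38, plus strand). In the order of their numbers, the non-treated libraries held 140, 132 and 124 CPM of TOP1 and those of 6j treated cells 116, 114 and 107 CPM. Each 6j library was below each non-treated library, and by replicate number the log2 differences were −0.27, −0.21 and −0.21. The means were 132 ± 7.89 and 112 ± 4.65 CPM (SD, n = 3 each), 14.9% lower after 6j, with a log2 fold change of −0.23 (standard error 0.08, 95% interval −0.41 to −0.05). It did not pass in edgeR (adjusted p = 0.105). The fit with the block gave an adjusted p of 0.0175 in edgeR, a pass on p but not on fold. The pass depended on scaling as well, since TPM scaling with the block gave −0.11 and an adjusted p of 0.229 in edgeR.

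The DNA before the TOP1 start is shown because TOP1 was among the 2 genes whose groups did not overlap in CPM. It can thus be set beside those of TOP3B and TOP2A. It is from RefSeq (GRCh38.p14), chr20:41028572-41028817 on the plus strand, read 5′ to 3′ and ending just before the first annotated transcript. Capitals mark a GC box (GGGCGG) and the core of a cyclic AMP response element (TGACG), each searched on both strands.
TOP1: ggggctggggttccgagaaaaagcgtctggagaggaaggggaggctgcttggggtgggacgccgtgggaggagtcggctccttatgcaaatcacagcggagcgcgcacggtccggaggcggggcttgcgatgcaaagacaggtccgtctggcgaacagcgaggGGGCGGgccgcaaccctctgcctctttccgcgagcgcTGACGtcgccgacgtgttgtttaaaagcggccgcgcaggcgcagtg
Over 35116 RefSeq promoter windows of 300 bases, 45.0% hold the GC box and 24.6% the TGACG core. The full element TGACGTCA, which holds that core and is present in 1.85% of windows, was in none of the windows of the 7 genes that had an entry.

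TOP1MT (ENSG00000184428) encodes the mitochondrial type IB enzyme, which acts on the mitochondrial genome (chromosome 8, 143304384 to 143359979, minus strand). Non-treated replicates 1 to 3 had 24.4, 20.5 and 20.7 CPM of TOP1MT, against 20.9, 15 and 19.3 CPM after 6j. The groups overlapped, since 6j replicate 1 lay above non-treated replicates 2 and 3, and 6j replicate 2 was the lowest library. With a standard error of 0.14, the log2 fold change of −0.25 (edgeR adjusted p = 0.323) was as large as that of TOP1 but had the widest interval of the 8 genes, −0.57 to 0.08. Without 6j replicate 2 it was −0.12, and under TPM scaling −0.13.

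TOP2A (ENSG00000131747) encodes the type IIA enzyme that untangles sister chromatids before and during mitosis, and is the main target of etoposide and doxorubicin in dividing cells. It lies on chromosome 17 from 40388516 to 40417950 (GRCh38, minus strand). TOP2A stood at 574, 613 and 634 CPM in non-treated replicates 1 to 3, and at 533, 521 and 599 CPM after 6j. The 6j library of replicate 3 lay above non-treated replicate 1, so the groups overlapped, although the 6j library was the lower one at each replicate number. The means of 607 ± 30.4 and 551 ± 42.1 CPM (SD, n = 3 each) gave a log2 fold change of −0.14 (95% interval −0.34 to 0.06), which did not pass in edgeR (adjusted p = 0.373, or 0.0842 in the blocked fit). Under TPM scaling it was −0.02 (edgeR adjusted p = 0.908).

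The TOP2A promoter is shown because it carries the motifs known from genes that peak before mitosis. It is chr17:40417951-40418146 on the minus strand (RefSeq, GRCh38.p14), cut at the first transcript start annotated in GENCODE. Capitals mark ATTGG, the CCAAT box on the other strand, TTTGAA and its complement TTCAAA, the core of the cell cycle homology region, and TGACG.
TOP2A: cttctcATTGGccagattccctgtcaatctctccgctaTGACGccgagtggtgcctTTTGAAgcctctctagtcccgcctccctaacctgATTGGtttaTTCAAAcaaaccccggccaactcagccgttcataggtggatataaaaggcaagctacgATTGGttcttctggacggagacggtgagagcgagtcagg
This stretch held 3 inverted CCAAT boxes and 2 copies of TTTGAA, and the whole window of 300 bases held 4 and 2. At least 1 CCAAT box was found in 34.6% and at least 1 TTTGAA in 15.2% of all windows. Of 22 G2/M genes, which are used around mitosis, 18 had a promoter entry. At least 1 window held CCAAT in 16 of the 18 and TTTGAA in 12, against 39.7% and 18.2% of 27305 genes. These matches describe the letters only.

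TOP2B (ENSG00000077097) encodes the second type IIA enzyme, which works at promoters and chromatin loop anchors (chromosome 3, 25597905 to 25664907, minus strand). Its values of 175, 166 and 180 CPM in non-treated cells and 163, 169 and 177 CPM in 6j treated cells were interleaved. The log2 fold change was −0.03 (95% interval −0.20 to 0.14, adjusted p = 0.822 in edgeR), and turned to 0.09 under TPM scaling. TOP2B had 28 bases of exon in common with RARB on the opposite strand.

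**Figure D2:**
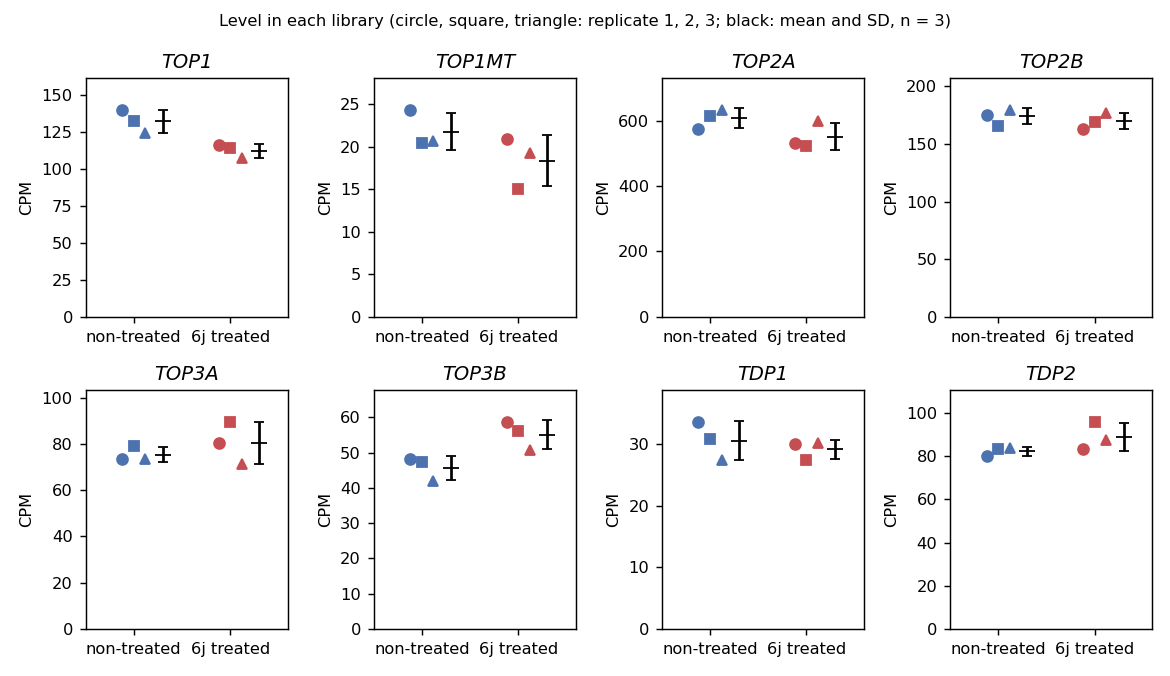
Level of each gene in CPM (vertical axes, each from 0) in the 3 non-treated (blue) and 3 6j treated libraries (red), with circles, squares and triangles for replicates 1, 2 and 3 and black marks for the mean and SD. The red points lie below the blue ones for TOP1 and above them for TOP3B, and the colours overlap in the other 6 panels.

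TOP3A (ENSG00000177302) encodes a type IA enzyme that, with BLM and the RMI proteins, resolves crossed DNA strands in the nucleus and separates mitochondrial genomes (chromosome 17, 18271428 to 18315007, minus strand). It was at 73.7, 79.0 and 73.6 CPM in non-treated and 80.4, 89.7 and 71.4 CPM in 6j treated replicates 1 to 3. The 6j libraries held both the lowest and the highest value. The log2 fold change was 0.09 (95% interval −0.12 to 0.31, adjusted p = 0.592 in edgeR), and was 0.01 without 6j replicate 2 and 0.22 under TPM scaling.

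TOP3B (ENSG00000100038) encodes the other type IA enzyme, which acts on RNA as well as DNA and works with TDRD3 (chromosome 22, 21957025 to 21982816, minus strand). TOP3B counts came to 48.2, 47.3 and 41.8 CPM in non-treated replicates 1 to 3, compared with 58.8, 56.0 and 50.7 CPM after 6j. Each 6j library was above each non-treated library, and the log2 differences by replicate number were 0.29, 0.24 and 0.28. The mean went from 45.7 ± 3.47 to 55.1 ± 4.12 CPM (SD, n = 3 each), 20.5% higher, with a log2 fold change of 0.27 (standard error 0.10, 95% interval 0.05 to 0.49). The adjusted p in edgeR was 0.112, or 0.0117 in the blocked fit, again under the fold threshold. With TPM scaling the log2 fold change was 0.39 and passed without the block (adjusted p = 0.0441) and with it (adjusted p = 0.00177 in edgeR). An antisense gene, AC245452.1, covers 6024 of the 6641 exon bases of TOP3B on the opposite strand and has no row in the table, and whether the counting used strand is not given in the sources used here. Reads from the antisense gene and TOP3B therefore cannot be told apart.

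The TOP3B promoter is shown for contrast with that of TOP1, as the gene whose groups separated the other way. It is chr22:21982817-21983037 on the minus strand (RefSeq, GRCh38.p14), ending before the first annotated start.
TOP3B: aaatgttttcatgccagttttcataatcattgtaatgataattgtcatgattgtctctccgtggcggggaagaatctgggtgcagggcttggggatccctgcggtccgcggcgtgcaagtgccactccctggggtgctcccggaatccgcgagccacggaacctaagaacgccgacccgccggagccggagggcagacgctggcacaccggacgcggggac
None of the motifs named above was found in this stretch, and the whole window held 1 GC box.

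Groups that did not overlap in CPM were thus seen for 2 of the 8 genes, 1 lower and 1 higher. This held for 31.7% of all rows tested (16.0% higher and 15.8% lower). Which genes separated depended on scaling. In TPM, the level per length given below, TOP1 overlapped (124 to 143 in non-treated, 117 to 131 in 6j treated libraries). TDP2 did not overlap in TPM (99 to 105 in non-treated, 110 to 134 in 6j treated libraries). With the block, TOP1 and TOP3B had an adjusted p under 0.05 in edgeR, as did 26.9% of all rows (13.1% higher and 13.9% lower). With the fold threshold added, the block called 0 of the 8 in edgeR against 6.47% of all rows (4.01% higher and 2.46% lower). Under TPM scaling alone TOP3B passed, as did 11.2% of all rows (1481 higher and 302 lower). With TPM scaling and the block, 3 of the 8 did (TOP3B, TDP2 and TOP3A), each higher, against 29.6% of all rows. Of those rows 3593 were higher and 1132 lower.

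TDP1 (ENSG00000042088) encodes the enzyme that frees DNA ends from trapped TOP1 (chromosome 14, 89954939 to 90044768, plus strand). TDP1 was found at 33.7, 30.8 and 27.4 CPM in non-treated and 30.0, 27.5 and 30.2 CPM in 6j treated replicates 1 to 3, so that the 6j values lay within the non-treated range. The log2 fold change of −0.07 (95% interval −0.31 to 0.17, adjusted p = 0.748 in edgeR) had no stable sign. It was 0.01 without non-treated replicate 1 and 0.05 under TPM scaling.

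TDP2 (ENSG00000111802) encodes the enzyme that does the same for trapped TOP2 (chromosome 6, 24649977 to 24667033, minus strand). It was at 79.9, 83.2 and 83.8 CPM in non-treated and 83.3, 96.1 and 87.5 CPM in 6j treated replicates 1 to 3. The groups overlapped by 1 library, and the 6j library was the higher at each replicate number, by 0.06, 0.21 and 0.06 on the log2 scale. The log2 fold change was 0.11 (95% interval −0.07 to 0.30, adjusted p = 0.428 in edgeR), and 0.23 with TPM scaling and the block (adjusted p = 0.0196).

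Levels of different genes were compared per length, as TPM over the annotated exons, in non-treated cells. TOP2A had the highest level with 359 ± 16.4 TPM (SD, n = 3), 2.67 times that of TOP1 at 135 ± 9.78 TPM. TOP2B (110 ± 2.27 TPM) and TDP2 (102 ± 3.0 TPM) followed. TOP3A was at 44.4 ± 2.64, TOP3B at 26.3 ± 2.44, TDP1 at 18.8 ± 2.16 and TOP1MT at 12.9 ± 1.33 TPM. No neighbours in this order overlapped between the non-treated libraries, whereas in 6j treated cells TOP1 and TOP2B, and TOP2B and TDP2, did. The order depended on the length used. With the longest annotated transcript in place of all exons, TDP2 (110 ± 2.94 TPM) moved above TOP1 (99.9 ± 7.03 TPM) and TOP1MT (30.5 ± 3.14 TPM) above TDP1, while TOP2A remained first.

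**Figure D3:**
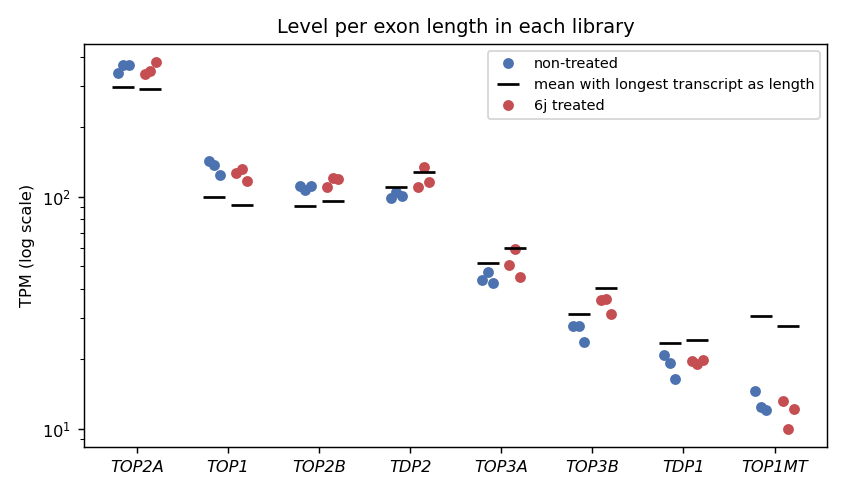
Level per exon length in TPM (log axis) in each non-treated (blue) and 6j treated (red) library, with black bars for the group mean when the longest transcript is used as the length. TOP2A is the highest at 337 to 379 TPM and TOP1MT the lowest at 10.0 to 14.5 TPM, and the bars of TOP1MT sit well above its points.

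Related enzymes were then compared within each library, since a difference between genes of the same library does not depend on its scaling. TOP2A exceeded TOP2B by 1.80 ± 0.08 on the log2 CPM scale in non-treated and by 1.70 ± 0.07 in 6j treated cells (SD, n = 3 each), a change of −0.11 (two-sided exact permutation test, p = 0.2). TOP3A exceeded TOP3B by 0.72 ± 0.10 and 0.54 ± 0.12, a change of −0.18 (exact permutation test, p = 0.2), and the change was −0.16, −0.06 and −0.32 at replicate numbers 1 to 3, compared with −0.01, −0.26 and −0.06 for TOP2A minus TOP2B. TDP1 minus TDP2 changed by −0.17 (exact permutation test, p = 0.4) and TOP1 minus TOP1MT by 0.02 (exact permutation test, p = 1.0). After Benjamini-Hochberg adjustment over the 4 pairs the smallest p was 0.4, and 3 libraries against 3 allow none below 0.1. In TPM, the ratio of TOP2A to TOP2B was 3.28 ± 0.192 in non-treated and 3.05 ± 0.142 in 6j treated cells (SD, n = 3 each).

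**Figure D4:**
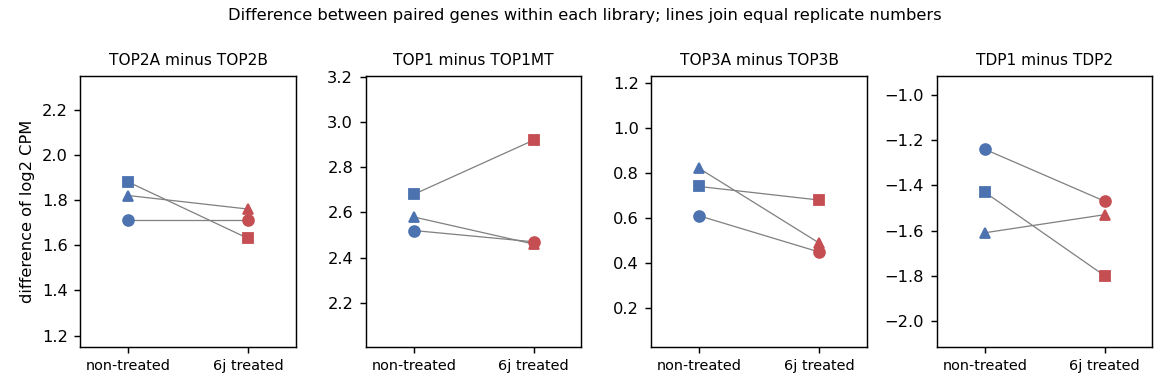
Difference of log2 CPM between the genes of each pair (vertical axes, all spanning the same range of values) in every library, with lines joining libraries of equal replicate number. The lines fall at each replicate number for TOP3A minus TOP3B (−0.16, −0.06 and −0.32) and for TOP2A minus TOP2B (−0.01, −0.26 and −0.06), and the groups overlap in all 4 panels.

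The genes that act with topoisomerases were described by lists written from general knowledge. Among 13 genes for the repair of TOP1 complexes, 3 had an adjusted p under 0.05 in edgeR, all lower in 6j treated cells, against 9.16% of all rows, and the list's median log2 fold change was −0.11. These were PARP1, which senses strand breaks (423 ± 15.2 to 313 ± 19.4 CPM, SD, n = 3 each, log2 fold change −0.43, adjusted p = 0.0167 in edgeR), the nuclease scaffold SLX4 (−0.48) and the flap endonuclease FEN1 (−0.29). Each lost its pass in at least 3 of the 6 fits that left out 1 library, among them the fits without non-treated replicate 1 and without 6j replicate 2. Of all rows, 1.24% and 1.33% passed in the latter fits, and 3.82% to 9.86% in the others. In the blocked fit 5 of the 13 passed, all lower (38.5%, against 26.9% of all rows). Under TPM scaling 1 of the 13 passed, against 11.2% of all rows, and the median was 0.01.

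Among 13 genes for the repair of TOP2 complexes and end joining, 2 passed (15.4%, against 9.16% of all rows), and both were lower. They encode the Ku subunits that bind broken ends, XRCC5 (318 ± 19.1 to 231 ± 1.10 CPM, SD, n = 3 each, log2 fold change −0.46, adjusted p = 0.0117 in edgeR) and XRCC6 (−0.41, adjusted p = 0.0197 in edgeR). Neither passed once non-treated replicate 1, or 6j replicate 2, was dropped, where 1.24% and 1.33% of all rows passed. RBBP8, which starts end resection, had a log2 fold change of 0.24 and did not pass (adjusted p = 0.118 in edgeR). In the blocked fit, 4 of the 13 were lower and 2 higher, against 26.9% of all rows. Under TPM scaling 2 were lower and 2 higher, against 11.2% of all rows.

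In each of the next 4 lists a single gene passed in edgeR, which was 12.5% of the first, 7.14% of the second and of the third and 9.09% of the fourth, against 9.16% of all rows. Of 8 partners of TOP3A and TOP3B, BLM, the helicase of the TOP3A complex, had a log2 fold change of −0.34 and passed (adjusted p = 0.0393 in edgeR). It passed in 1 of the 6 fits that left out 1 library, where 1.24% to 9.86% of all rows passed. Under TPM scaling 0 of the 8 passed, against 11.2% of all rows. With the block 1 of the 8 passed (12.5%, against 26.9% of all rows), which was BLM. TDRD3, the partner of TOP3B, was at 23.5 ± 0.823 and 25.4 ± 2.21 CPM (SD, n = 3 each) and did not pass (adjusted p = 0.55 in edgeR), nor did RMI2, a subunit of the TOP3A complex (0.12). Of 14 genes for the modification and degradation of trapped topoisomerases, VCP, a segregase that extracts proteins from chromatin, passed (log2 fold change −0.45, adjusted p = 0.0247 in edgeR), and did so in 1 of the 6 fits that left out 1 library. The ubiquitin ligase genes CUL4B (0.34) and DDB1 (−0.21) did not pass without the block. With it both did, and of the 14 genes 1 was higher and 3 lower (28.6%, against 26.9% of all rows). Of 14 condensin and cohesin genes, the condensin subunit NCAPG passed (−0.37, adjusted p = 0.0401 in edgeR, and in 2 of the 6 fits that left out 1 library). NCAPH (−0.35) and NCAPD2 (−0.28) missed the threshold, and 7 of the 14 passed with the block, all lower (50%, against 26.9% of all rows, 13.9% lower). Of 11 genes for mitochondrial DNA maintenance, where TOP1MT and TOP3A act, SSBP1, which binds single-stranded mitochondrial DNA, passed (−0.31, adjusted p = 0.0426 in edgeR) but in none of the 6 fits that left out 1 library. POLRMT (−0.32), the mitochondrial RNA polymerase, and POLG (−0.24), the DNA polymerase, did not pass without the block, and the list's median was −0.21. With the block both were among the 4 of the 11 that passed, all lower (36.4%, against 26.9% of all rows). Under TPM scaling 0 genes of these last 3 lists passed in edgeR, against 11.2% of all rows (1481 higher and 302 lower). With the block as well, 3 were higher and 1 lower in the second list. In the third 3 were higher and 3 lower, and in the fourth 0 and 1, against 29.6% of all rows.

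TOP2A is usually read together with other genes of dividing cells. The 22 G2/M genes had log2 fold changes from −0.58 to −0.15, with a median of −0.28, and each of the 22 was below the −0.14 of TOP2A. In edgeR 7 of the 22 passed (31.8%, against 9.16% of all rows), and 17 in the blocked fit (77.3%, against 26.9%), all lower. Under TPM scaling all 22 estimates stayed below 0, with a median of −0.16, and 3 passed, against 11.2% of all rows. KIF20A, a mitotic kinesin (144 ± 8.10 to 95.9 ± 7.16 CPM, SD, n = 3 each, adjusted p = 0.0085 in edgeR), passed in all 6 fits that left out 1 library. The mitotic cyclin CCNB1 fell by 0.50 and CDK1, its kinase, fell by 0.46 on the log2 scale, and neither held when either non-treated replicate 1 or 6j replicate 2 was dropped. Those fits passed 1.24% and 1.33% of all rows. Of 22 S phase genes, 4 passed (18.2%, against 9.16% of all rows), all lower, with a list median of −0.16. In the blocked fit 7 were lower and 1 higher (36.4%, against 26.9% of all rows). TYMS (thymidylate synthase, −0.51), UHRF1 (−0.40) and RRM2 (a ribonucleotide reductase subunit, −0.53) had the smallest p-values without the block. Each of these 3 lost its pass without 6j replicate 2, where 1.33% of all rows passed. FEN1 is on this list as well as on that of TOP1 repair. Under TPM scaling 1 of the 22 S phase genes passed, against 11.2% of all rows. The median was −0.03 and the estimates were 9 higher and 13 lower, against 3 and 19 under TMM.

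Of 20 tested transcripts known to rise after DNA damage, 3 passed in edgeR (15%, against 9.16% of all rows), all higher in 6j treated cells. The list's median log2 fold change was 0.11, with 14 estimates higher and 6 lower. GADD45A rose from 19.4 ± 1.48 to 46.9 ± 6.26 CPM (SD, n = 3 each, log2 fold change 1.28, adjusted p = 0.00129 in edgeR), and was called in all 6 fits that left out 1 library. CDKN1A, the cyclin-dependent kinase inhibitor p21, rose from 83.3 ± 4.54 to 166 ± 38.4 CPM (SD, n = 3 each, log2 fold change 1.00, adjusted p = 0.0113 in edgeR), but did not pass when non-treated replicate 1, or 6j replicate 2, was dropped. The death receptor gene TNFRSF10B passed with a log2 fold change of 0.42, under the fold threshold, and in 2 of the 6 such fits. With the block 6 of the 20 were higher and 1 lower (35%, against 26.9% of all rows). Under TPM scaling the median was 0.23 and 6 passed, all higher. Over all rows the median was then 0.13, and 11.2% passed (1481 rows higher and 302 lower). With the block as well, 12 of the list were higher and 1 lower. Of all rows 29.6% then passed (3593 higher and 1132 lower). GADD45A and CDKN1A are also known to respond to stresses other than DNA damage.

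**Figure D5:**
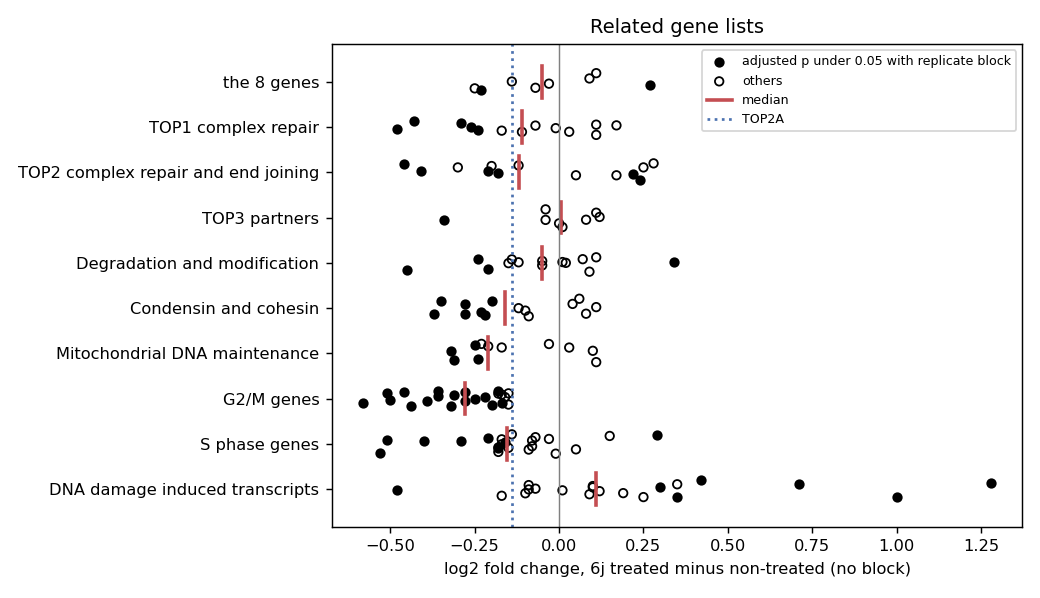
Log2 fold changes (6j treated minus non-treated, edgeR without a block) of the 8 genes and of 9 related lists, with 1 point for each gene tested, filled where the adjusted p was under 0.05 with the replicate block, and a red line at each median. The 22 G2/M genes all lie left of the dotted line at TOP2A (−0.14), the nearest at −0.15. The list of DNA damage induced transcripts has its median at 0.11.

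The genes most like TOP1 and TOP2A over the 6 libraries were found by Pearson's r of log2 CPM among 9732 other genes with a mean of at least 10 CPM. For TOP1 these were NOP9 (r = 0.995), GEMIN5 (r = 0.991) and CTDP1 (r = 0.990), and for TOP2A they were ARPC5 (r = 0.994), LONP2 (r = 0.992) and SH3BGRL3 (r = 0.981). The median over all genes compared was 0.088 for TOP1 and 0.045 for TOP2A. The G2/M genes had a median r of 0.602 with TOP2A (0.214 to 0.938) and of 0.822 with TOP1 (0.041 to 0.970). These values are a description, since the points share their libraries and the split into 2 groups. The named genes were picked as the largest of 9732 values over 6 points each, so their r carries no test of a link.

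TOP1 and TOP2 are known to be needed most by long transcription units, so fold changes were also set out by gene span. The median log2 fold change was −0.07 for 4848 genes under 20 kb, 0.01 for 5919 genes of 20 to 100 kb, 0.04 for 1590 genes of 100 to 200 kb and −0.04 for 1002 genes over 200 kb. The genes over 200 kb had quartiles of −0.25 and 0.14, and their median differed from that of all Ensembl genes by −0.02, which was less than the SD of 0.03 between replicate numbers.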

How the data were processed

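Polyadenylated RNA of 6 libraries was sequenced by a company. The table that the authors deposited holds raw counts, whole numbers with no normalization, and the submitters' processing notes name HISAT2, StringTie and GRCh38 without versions. The annotation, the counting program and its use of strand are not given in the sources used here, so the counts may be rounded estimates. DESeq2 at a 1.5-fold change was the study's own method. Here edgeR 4.0.16 (R 4.3.3) was the main test on the deposited counts, after filterByExpr (about 10 counts in enough libraries, total at least 15) and TMM, with robust quasi-likelihood fits and Benjamini-Hochberg adjustment over 15957 rows. Standard errors came from the F statistic, and log2 CPM used a prior count of 2. DESeq2 1.42.0 was an alternative. Differences between genes were tested by exact permutation in Python 3.11.15. GENCODE version 29 held each of the 19974 Ensembl identifiers and gave symbols, coordinates and lengths. Promoters came from RefSeq and covered 7 of the 8 genes.

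The 8 genes and all lists were chosen with earlier results of these data known. The text names the 8 genes, the called members and the 3 with the smallest p of each list, and the 3 genes most like TOP1 and TOP2A. The pair of meiotic type II-like genes (SPO11, TOP6BL) had no row that was tested. Nothing in the labels says that the libraries came from separate cultures, so p-values measure the spread between these libraries. Deviations from the group mean correlated with r = 0.171, 0.18 and 0.312 for equal replicate numbers and −0.231 to 0.0795 for others, so the numbers were treated as pairing the libraries. That pairing was taken from the same counts and is not given by the labels. On simulated counts with 200 changed genes over 15660 or 15678 genes, edgeR recovered 22.5% of 1.5-fold and 73.7% of 2-fold changes at an adjusted p under 0.05. False calls averaged 6.67 and 11.3. The blocked fit recovered 20.3% and 71.3%, with 17 and 16 false calls on average. The simulated libraries were not paired. TPM scaling, alone or with the block, and the longest transcript as length were added after the data had been seen.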

Additional observations from a re-analysis of the deposited data

How the results depend on the processing

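The number of genes called was 574 in edgeR, 1033 with the replicate block, 1248 with the block and TPM scaling, 1462 with no fold threshold and 1136 with an unadjusted p, and 186 to 772 when each library was left out. None of the 8 genes was called under any of the 14 other fits or the 2 other thresholds. Of 112 values of the 8 genes under other fits, 101 kept their sign and their side of an adjusted p of 0.05, and 6 passed it, all with the block or TPM scaling. The sign turned for TOP2B under TPM scaling (0.09, also with the block) and for TDP1 under TPM scaling (0.05, and 0.06 with the block) and without non-treated replicate 1 (0.01, in a range from −0.14 when each library was left out), and the cause was not tested. With the replicate block as sign flips, the 4 differences between related genes had p of 0.25 to 1.0, where 3 pairs allow none below 0.25. TOP1 minus TOP1MT ranged from −0.13 to 0.10 when each library was left out, and the difference of genes over 200 kb from all genes from −0.04 to 0.01. With the longest transcript as length, 3 of the 8 genes kept their place in the order of levels. Each of the 8 genes had at least 569 counts in every library, and other depths and group sizes were not tested.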
